A study of Mus musculus with 24 samples.

Results

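The change of gene expression between 6 h and 24 h of culture with Fz7-21S was described in organoids of mouse small intestine. These are cultures in which intestinal stem cells and their progeny grow as a folded epithelial sheet. The comparison sets the 4 libraries titled Fz7-21S at 24 h against the 4 titled Fz7-21S at 6 h, which are 8 of the 24 libraries of the study. The other 16 libraries, 4 in each group, were dFz7-21 at 24 h and at 6 h, and the vehicle DMSO at 24 h and at 6 h. The study asks how the epithelium responds when Frizzled 7, a Wnt receptor, is blocked, and its design text names dFz7-21 as the blocking peptide. The labels give nothing about Fz7-21S except its name, and no dose, medium, strain, age or sex. Whether the 4 replicates of a group came from different animals or dishes is not stated, and p-values here reflect how far these libraries differ from each other, perhaps for technical reasons alone. No untreated library before treatment was used here, so each value is a difference between the later and the earlier time and not a response to Fz7-21S.

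As background, the intestinal epithelium renews itself from Lgr5-expressing stem cells at the crypt base, which depend on Wnt and epidermal growth factor signals. Their daughters divide several times and then become absorptive enterocytes or secretory goblet, Paneth, enteroendocrine and tuft cells. Immediate early genes such as Fos are switched on within minutes by growth factors or stress and are then shut off again.

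Polyadenylated RNA was sequenced, and reads were counted per gene. The 8 libraries held 21516838 to 27377146 counts. Levels are given in CPM, counts scaled to a common library total after TMM normalisation, and a count of 3, taken as the floor for a gene without reads, corresponds to 0.110 to 0.139 CPM in them. Markers of other cell types stayed low in all 8 libraries: the 20 mesenchymal markers summed to 11.6 to 14.9 CPM at 24 h and to 11.2 to 14.6 CPM at 6 h, with Dcn, Lum and Thy1 at 0 in each. In the other 16 libraries that sum reached 1659 CPM, and mesenchymal transcripts were found in 3 of them, namely replicate 3 of dFz7-21 at 24 h and, for DMSO at 6 h, replicates 1 and 2. Of the 8 mesenchymal markers with enough reads to be tested, Pdgfrb (3.73 against 1.24 CPM) and Fap (0.522 against 0.126 CPM) were higher at 24 h. The 20 immune markers summed to 4.83 to 7.96 CPM at 24 h and to 3.93 to 6.19 CPM at 6 h. The 14 endothelial and glial markers summed to 13.6 to 15.3 CPM at 24 h and to 9.34 to 11.2 CPM at 6 h, and Vwf and Esam rose among the 6 tested. Epithelial markers were abundant, at 16323 to 21206 CPM summed over 12 genes at 24 h and 23115 to 24183 CPM at 6 h. Of these 12 markers, 9 fell and 1, Lgals4, rose. Among all genes tested, 31.0% were called higher and 28.1% lower at 24 h, which is the background for these marker counts as well.

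Replicate 4 of Fz7-21S at 24 h stood apart from the other libraries in the relation of its values to gene length. For each doubling of length, its values fell by 0.15 on the log2 scale relative to the mean of its group, where the slopes of the other 7 libraries lay between -0.02 and 0.07. The median log2 deviation from the group mean in this library was 0.32 for the shortest and -0.35 for the longest of 4 equal classes of gene length. Counts of this library differed from those of its 3 replicates with a chi-square per degree of freedom of 74.9 to 96.1, against 2.86 to 9.34 between other replicates of Fz7-21S. The first principal component of the 8 libraries, with 62.4% of the variance, parted 24 h from 6 h, and on the second, with 18.0%, this library lay farthest from the other 7. The share of counts from mitochondrial genes was 0.530% in it, against 0.557% to 0.812% in its 3 replicates and 0.415% to 0.632% at 6 h. Groups of genes are given below with and without this library. The other treatments, which do not hold it, also had a relation of the change over time to gene length. From the shortest to the longest class, the median log2 change, 24 h over 6 h, ran from 0.08 to -0.07 in DMSO. In dFz7-21 it ran from 0.12 to -0.15. The cause was not tested.

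**Figure D1:**
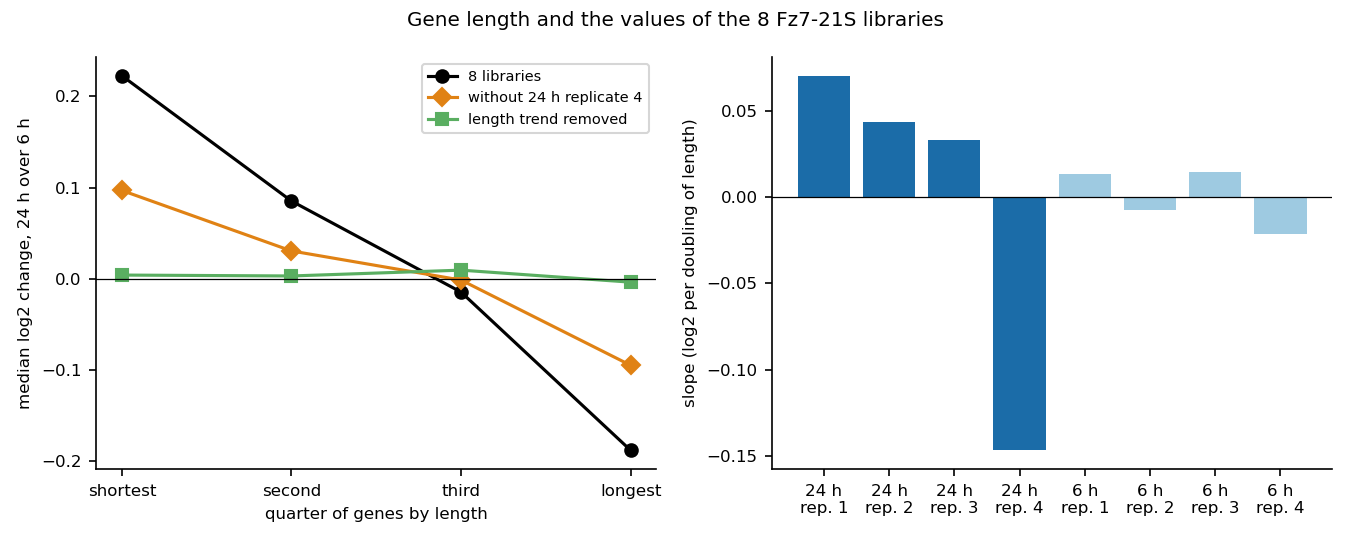
Left: median log2 change of all tested genes, Fz7-21S 24 h over 6 h, by class of gene length (4 classes of nearly equal size), with all 8 libraries, without 24 h replicate 4, and with a length trend removed from each library. Right: slope of the log2 deviation of each library from the mean of its group of 4 against log2 gene length. The medians ran from 0.22 in the shortest to -0.19 in the longest class with all 8 libraries, and from 0.10 to -0.10 without replicate 4, the single library with a steep negative slope.

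Expression at 24 h differed from that at 6 h for most genes. Of 15429 genes tested with edgeR's quasi-likelihood test, 9118 passed at a Benjamini-Hochberg adjusted p below 0.05, which is 59.1% of them. At 24 h 4786 genes (31.0%) were higher and 4332 (28.1%) lower. These shares are the background for the counts of each gene group below. For the called genes the median size of the log2 change was 0.54. At least a 2-fold change was seen for 1099 higher and 765 lower genes, and at least a 4-fold change for 164 higher and 162 lower genes. For 3928 genes all 4 libraries at 24 h lay above all 4 at 6 h, and for 3752 genes below, together 49.8% of the genes. The median log2 change of all genes was 0.03. Without replicate 4 of 24 h, 9221 genes were called, and 8258 of the 9118 genes (90.6%) kept their call and direction.

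**Figure D2:**
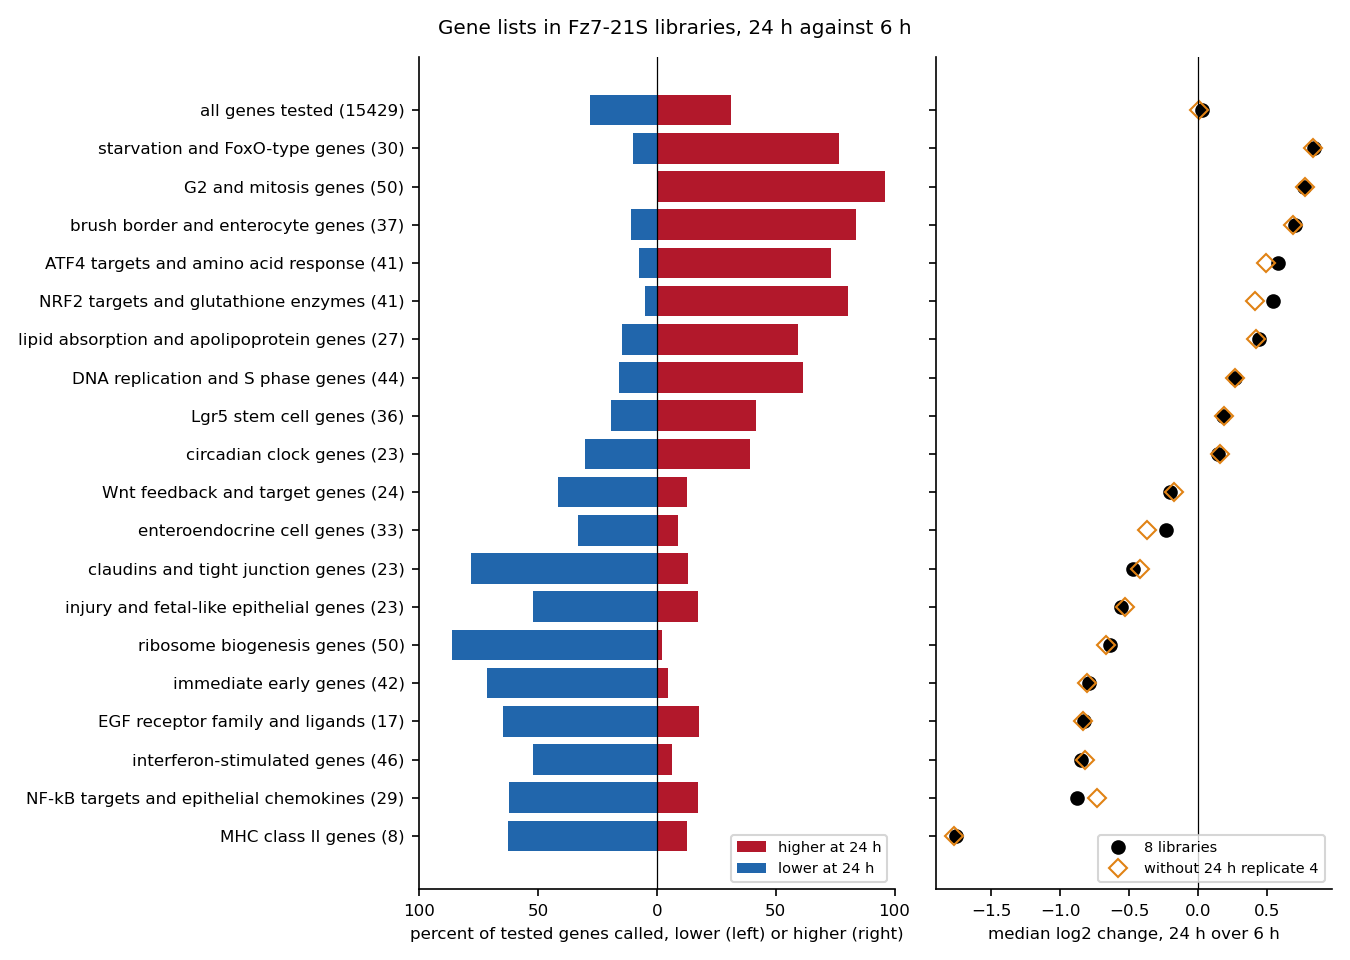
Gene lists in the 8 Fz7-21S libraries, 24 h against 6 h, with the number of tested genes in parentheses. Left: percent of the tested genes called higher (right) or lower (left); right: median log2 change with all 8 libraries and without 24 h replicate 4. Starvation and FoxO-type genes (median 0.84) and mitotic genes (0.77) lie at the top, MHC class II genes (-1.75) at the bottom, and all genes tested near 0.

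The genes that rose most between 6 h and 24 h included a basement membrane protein, enzymes of lipid and carotenoid metabolism, a transporter of imino acids, and genes of the starvation and amino acid responses. Nid1, the basement membrane glycoprotein nidogen (chromosome 13, 13437602 to 13512275), stood at 38.6, 37.4, 42.9 and 22.8 CPM in the Fz7-21S 24 h libraries, against 3.71, 2.88, 3.53 and 3.78 CPM in the 6 h libraries. It was 10.2-fold higher at 24 h (log2 change 3.35 ± 0.38, SE; adjusted p = 2.2e-07), and replicate 4 was the lowest of the 24 h libraries. Klhl24, a substrate adaptor of a ubiquitin ligase (chromosome 16, 20097553 to 20129226), stood at 43.8, 41.4, 37.8 and 23.6 CPM at 24 h, against 4.27, 4.41, 5.54 and 4.91 CPM at 6 h, a 7.64-fold rise (log2 change 2.93 ± 0.17). For both genes the lowest 24 h library lay far above the highest 6 h library. Bco2, the mitochondrial carotenoid-cleaving oxygenase, rose 6.67-fold to 22.0 ± 4.18 CPM at 24 h, against 3.29 ± 0.4 CPM at 6 h (SD, n = 4 each). Msln, the surface glycoprotein mesothelin, averaged 35.7 ± 5.73 CPM at 24 h and 5.40 ± 1.59 CPM at 6 h. Slc6a20a, which carries proline and other imino acids, averaged 41.7 ± 5.72 CPM at 24 h and 6.85 ± 0.359 CPM at 6 h.

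Among the others that rose most were the glucuronosyltransferase Ugt2b5 (log2 change 2.64 ± 0.15), which has close relatives that may share its reads, and the ceramidase Acer1 (2.48 ± 0.16). Rec8, a cohesin subunit known from meiosis, rose by 2.59 ± 0.09 on the log2 scale. Tmem86a, a lysoplasmalogenase that degrades ether lipids, rose by 2.50 ± 0.09. Prelp, an extracellular matrix proteoglycan, rose by 2.48 ± 0.17, Dmbt1, a secreted mucosal scavenger protein, by 2.35 ± 0.17, and the lectin-like Clec2e, which also has close relatives, by 2.34 ± 0.10. The last 2 of the 14 genes, Pck2 and Chac1, are described with the amino acid response. Without 24 h replicate 4, the log2 changes of these 14 genes lay between 2.27 for Pck2 and 3.50 for Nid1. Nid1 and Prelp are also expressed by mesenchymal cells. The 20 markers of these cells summed to overlapping levels at 24 h and at 6 h, with Dcn, Lum and Thy1 at 0. Among the 8 tested, Pdgfrb and Fap were called higher at 24 h and none lower, beside 31.0% higher among all genes. The part of mesenchymal cells in the rise of Nid1 and Prelp was not tested.

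The genes that fell most included a retinoid enzyme, a neuropeptide, a laminin chain, a keratin and genes of transient transcription. Aldh1a3, which makes retinoic acid from retinaldehyde (chromosome 7, 66390892 to 66427477), stood at 1.41, 1.28, 1.41 and 0.704 CPM at 24 h, against 19.3, 19.4, 22.5 and 18.0 CPM at 6 h. It was 16.2-fold lower at 24 h (log2 change -4.02 ± 0.15, adjusted p = 3.22e-16). Calcb, a calcitonin gene-related peptide (chromosome 7, 114716555 to 114723368), stood at 0.871, 1.33, 0.759 and 1.74 CPM at 24 h and at 19.9, 14.7, 16.6 and 16.6 CPM at 6 h, 14.6-fold lower. For both genes every 24 h library lay above the floor of 3 counts and far below the lowest 6 h library. Prnd, the prion-like protein doppel, had a log2 change of -3.74 ± 0.23, with 2.58 ± 0.535 CPM at 24 h, against 34.4 ± 2.68 CPM at 6 h. The gene model Prn overlaps Prnd and had almost the same values, so the reads of the pair cannot be told apart. Rrad, a Ras-like GTPase, averaged 1.18 ± 0.119 CPM at 24 h and 14.3 ± 0.966 CPM at 6 h.

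Lama3, the alpha chain of the laminin that anchors epithelia to the basement membrane, was 11.9-fold lower at 24 h (log2 change -3.57 ± 0.16). It stood at 3.94, 4.16, 3.62 and 2.58 CPM at 24 h, against 47.9, 36.8, 39.9 and 46.1 CPM at 6 h, and the lowest value at 24 h was that of replicate 4. Krt6a, a keratin of stressed epithelia that has near-identical relatives, fell to 3.46 ± 0.496 CPM at 24 h, against 29.3 ± 4.24 CPM at 6 h. Tead4, a DNA-binding partner of the coactivators YAP and TAZ, fell to 4.25 ± 0.732 CPM, against 28.1 ± 3.08 CPM at 6 h. Others of those that fell most were Fosl1, an AP-1 subunit (log2 change -3.20 ± 0.18), the synaptic factor Insyn1 (-2.88 ± 0.32), the MHC class II chaperone Cd74 (-2.87 ± 0.11), the surface protein Plet1 (-2.81 ± 0.17) and the activity-regulated gene Arc (-2.70 ± 0.15). Without 24 h replicate 4, the log2 changes of the 13 genes named here lay between -4.12 for Calcb and -2.69 for Arc. Genes were chosen among those whose 24 h and 6 h libraries did not overlap, so the lack of overlap is not a result.

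**Figure D3:**
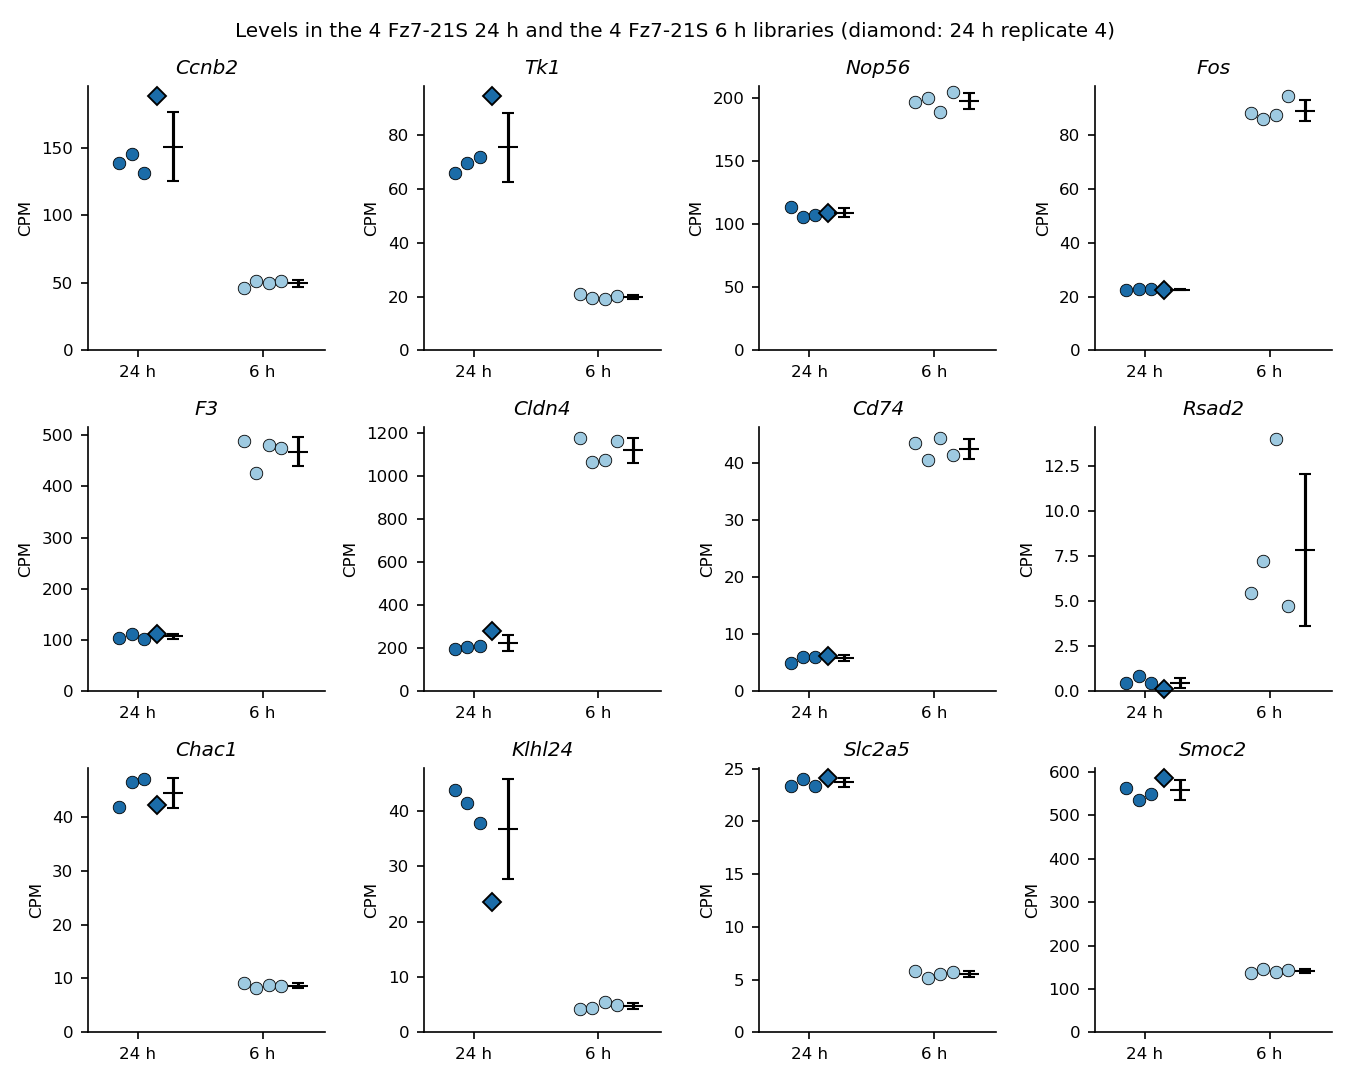
Levels in CPM of 12 genes in the 4 Fz7-21S 24 h libraries (left, dark) and the 4 Fz7-21S 6 h libraries (right, light), with the mean and SD of each group beside the points; the diamond is 24 h replicate 4. In every panel the groups do not overlap, and replicate 4 lies apart above its replicates for Ccnb2, Tk1 and Cldn4 and below them for Klhl24 and Rsad2. The 12 genes were picked from those named for a large change or a small p, so the lack of overlap is not a result. It held for 49.8% of all genes tested.

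Genes of mitosis were higher at 24 h. Of 50 tested genes of the G2 phase and mitosis, 48 rose and none fell, with a median log2 change of 0.77, against 31.0% higher among all genes. The 2 that did not pass, named after their values were seen, were the spindle checkpoint gene Bub3 (0.08) and the cytokinesis factor Ect2 (0.25). Ccnb2, a cyclin of the kinase that starts mitosis (chromosome 9, 70407689 to 70421554), stood at 139, 145, 131 and 188 CPM at 24 h, against 45.8, 51.5, 50.1 and 51.1 CPM at 6 h. It was 3.04-fold higher (log2 change 1.60 ± 0.08, adjusted p = 4.94e-14), with replicate 4 the highest library. Nusap1, a protein that bundles spindle microtubules, stood at 96.4, 102, 92.1 and 101 CPM at 24 h and at 41.1, 38.7, 45.8 and 39.5 CPM at 6 h, 2.37-fold higher. Aurkb, the kinase of the chromosomal passenger complex, was 1.87-fold higher at 129.7 ± 3.76 CPM, against 69.5 ± 1.24 CPM at 6 h. Racgap1, which organises the midzone for cytokinesis, was 1.75-fold higher at 125 ± 4.57 CPM, against 71.6 ± 1.46 CPM. Mki67, the proliferation antigen, stood at 389, 361, 348 and 203 CPM at 24 h, against 194, 179, 207 and 163 CPM at 6 h. Its groups overlapped, because replicate 4 lay within the range of the 6 h libraries, and the log2 change was 0.81 ± 0.12 with this library and 0.97 without it. Without replicate 4, 49 of the 50 genes rose and the median was 0.77.

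Promoters of many mitotic genes are known to carry CCAAT boxes, bound by NF-Y, and a cell cycle gene homology region, bound by complexes that repress these genes outside division. The promoters of 2 of the genes above are printed because they hold both elements. They come from RefSeq on GRCm38.p6 and run from 250 bases before to 50 after the start; capitals mark CCAAT and TTTGAA, searched on both strands. Ccnb2 (chr9:70421505-70421804, minus strand) has 3 and 2 matches, and Racgap1 (chr15:99651607-99651906, minus strand) has 1 and 1, its CCAAT box on the reverse strand as ATTGG.
Ccnb2: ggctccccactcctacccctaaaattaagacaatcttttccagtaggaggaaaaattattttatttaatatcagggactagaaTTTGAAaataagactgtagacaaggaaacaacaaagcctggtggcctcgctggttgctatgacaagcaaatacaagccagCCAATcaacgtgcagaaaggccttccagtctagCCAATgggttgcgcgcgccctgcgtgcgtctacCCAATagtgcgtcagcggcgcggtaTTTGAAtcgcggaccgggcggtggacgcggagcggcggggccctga
Racgap1: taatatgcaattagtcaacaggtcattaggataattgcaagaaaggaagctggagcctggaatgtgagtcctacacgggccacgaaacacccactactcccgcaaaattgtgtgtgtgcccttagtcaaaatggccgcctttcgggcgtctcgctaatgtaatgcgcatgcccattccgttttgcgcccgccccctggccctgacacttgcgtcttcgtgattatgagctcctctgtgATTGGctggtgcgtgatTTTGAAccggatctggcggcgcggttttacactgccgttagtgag
Both motifs were found in 26 of the 42 G2 and mitosis genes with a promoter in the table (61.9%) and in 806 of the 11334 tested genes with one (7.11%). A match describes the letters in this window and not a bound site.

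Genes of DNA replication rose less evenly. Of 44 tested S phase genes, 27 rose and 7 fell, with a median of 0.27 (without replicate 4, 28 and 8, with a median of 0.26). Tk1, the thymidine kinase that salvages a DNA precursor (chromosome 11, 117815519 to 117826087), stood at 65.9, 69.6, 71.6 and 94.3 CPM at 24 h, against 20.8, 19.4, 19.0 and 20.4 CPM at 6 h. It was 3.79-fold higher (log2 change 1.92 ± 0.10), and replicate 4 was the highest. Lig1, the ligase that joins Okazaki fragments, rose 1.84-fold to 159 ± 10.8 CPM, against 86.2 ± 3.07 CPM at 6 h, and Prim2, a subunit of the primase, rose 1.67-fold. Mcm7, a subunit of the replicative helicase, rose 1.55-fold to 116 ± 6.30 CPM, against 74.8 ± 2.96 CPM. The 7 that fell, named after their values were seen, were the helicase subunits Mcm2 (-0.26) and Mcm3 (-0.13), the licensing factors Cdc6 (-0.23) and Orc1 (-0.37), Ccne2 (-0.30), Uhrf1 (-0.26) and Dtl (-0.28), all with small changes.

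Genes that build ribosomes were lower at 24 h, while those of the ribosome itself were not. Of 50 tested genes of ribosome biogenesis, 43 fell and 1 rose, with a median of -0.64, against 28.1% lower among all genes. Without replicate 4, 47 fell and none rose. Nop56, a core protein of the particles that methylate ribosomal RNA (chromosome 2, 130274367 to 130279313), stood at 114, 106, 108 and 109 CPM at 24 h, against 197, 199.8, 189 and 204 CPM at 6 h. It was 1.81-fold lower (log2 change -0.86 ± 0.05, adjusted p = 1.06e-13), with a spread within each group far smaller than the gap between them. Nop2, a ribosomal RNA methyltransferase, was 1.79-fold lower at 102 ± 3.06 CPM, against 183 ± 4.14 CPM at 6 h. Rrp12, which helps to export both subunits, was 1.97-fold lower, and Mphosph10, of the processome of the small subunit, 1.73-fold lower. The gene that rose with all 8 libraries, named after its value was seen, was Imp3 (0.31), of the same processome. Of 44 ribosomal protein genes, 26 rose and 1 fell (median 0.36) with all 8 libraries, but without replicate 4 the counts were 11 and 2 and the median 0.09. These genes are short, with a median log2 length that differed by -1.80 from that of all genes. Respiratory chain genes, also short (-1.49), rose in 37 of 40 with a median of 0.41, and in 33 of 40 with a median of 0.23 without replicate 4.

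Several genes of ribosome biogenesis are known targets of Myc, which binds the E-box CACGTG. Nop2 is printed as an example, with its E-box in capitals (chr6:125131633-125131932, plus strand, RefSeq on GRCm38.p6).
Nop2: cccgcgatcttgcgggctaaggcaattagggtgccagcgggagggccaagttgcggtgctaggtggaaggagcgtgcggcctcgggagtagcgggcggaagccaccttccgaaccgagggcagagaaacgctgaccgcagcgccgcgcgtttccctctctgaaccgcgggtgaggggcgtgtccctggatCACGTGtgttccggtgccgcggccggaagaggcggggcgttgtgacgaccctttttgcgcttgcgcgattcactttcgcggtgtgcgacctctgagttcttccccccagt
The E-box, whose letters read the same on both strands, was found in 11 of 45 promoters of the list (24.4%), against 11.5% of all tested promoters. This share was not particular to the list. It was 24.0% for starvation and FoxO-type genes, which rose, 26.7% for immediate early genes and 9.52% for G2 and mitosis genes. Myc itself stood at 169.7, 166, 172 and 176 CPM at 24 h, against 255, 278, 273 and 274 CPM at 6 h, 1.58-fold lower (log2 change -0.66 ± 0.05). Whether Myc had a part in the fall of ribosome biogenesis genes was not tested.

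Immediate early genes and feedback inhibitors of the MAP kinase pathway were mostly lower at 24 h. Of 42 tested, 30 fell and 2 rose, with a median of -0.79 (without replicate 4, 31 and 2, with a median of -0.80). Fos, the AP-1 subunit (chromosome 12, 85473890 to 85477274), stood at 22.4, 22.8, 22.9 and 22.4 CPM at 24 h, against 88.5, 86.2, 87.5 and 94.8 CPM at 6 h, 3.94-fold lower (log2 change -1.98 ± 0.08, adjusted p = 6.25e-16). The 4 libraries of each time were close together, and replicate 4 did not stand apart for this gene. Egr1, a zinc finger factor induced by growth factors, was 2.6-fold lower at 70.1 ± 7.26 CPM, against 182 ± 3.10 CPM at 6 h. Not all members fell: Jun (-0.06), Atf3 (-0.15) and Ier5 (-0.07) did not pass the test, and the antiproliferative gene Btg2 rose 1.78-fold to 161 ± 7.39 CPM, against 90.4 ± 1.66 CPM. The other that rose was the nuclear receptor Nr4a2 (0.92); these 4 genes other than Btg2 were named after their values were seen.

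Ligands and the receptor of the EGF family fell with them. Of 17 tested genes of this pathway, 11 fell and 3 rose (median -0.83; without replicate 4, 11 and 4). Btc, the ligand betacellulin (chromosome 5, 91357261 to 91402994), stood at 27.7, 28.2, 23.0 and 20.4 CPM at 24 h, against 129.6, 111, 129 and 120.0 CPM at 6 h, 4.93-fold lower. Hbegf, a ligand shed from the membrane, was 3.27-fold lower at 19.0 ± 1.18 CPM, against 61.9 ± 2.39 CPM at 6 h. The receptor Egfr was 2.91-fold lower at 28.7 ± 6.34 CPM, against 83.7 ± 6.49 CPM, and the feedback inhibitor Errfi1 2.17-fold lower. The 3 that rose (named after seeing their values) were the coreceptor Erbb2 (0.12) and the negative regulators Lrig1 (0.42) and Lrig3 (0.28).

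Genes of the injured or fetal-like epithelium, which cells express while they repair or spread, were also lower. Of 23 tested, 12 fell and 4 rose (median -0.56; without replicate 4, 12 and 3). F3, the tissue factor that starts coagulation (chromosome 3, 121723537 to 121735052), stood at 105, 111, 102 and 112 CPM at 24 h, against 489, 426, 480.1 and 475 CPM at 6 h, 4.35-fold lower (log2 change -2.12 ± 0.08). Il1rn, the antagonist of interleukin 1 receptors, was 3.26-fold lower, and Tnfrsf12a, the receptor of the cytokine TWEAK, 2.77-fold lower. The 4 that rose were Msln, described above, and S100a6 (0.43), Hopx (0.65) and Tert (1.45), named after their values were seen.

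Genes of cell junctions were lower in most cases, with exchanges among the claudins that line the paracellular path. Of 23 tested, 18 fell and 3 rose (median -0.47), with the same counts without replicate 4. Cldn4, a claudin that seals the junction (chromosome 5, 134945123 to 134946934), stood at 198, 208, 212 and 279.7 CPM at 24 h, against 1180.0, 1068, 1075 and 1164 CPM at 6 h, 5-fold lower (log2 change -2.32 ± 0.10, adjusted p = 2.02e-15). Cldn15, a claudin that lets sodium through and is abundant in small intestine (chromosome 5, 136967869 to 136975845), moved the other way: it stood at 427, 426, 457 and 498 CPM at 24 h, against 161, 157, 153 and 159.6 CPM at 6 h, 2.87-fold higher. Cldn2, another cation pore, was 1.56-fold lower at 382 ± 26.0 CPM, against 595 ± 15.4 CPM at 6 h. Cdh1, the adhesion protein E-cadherin, was 1.73-fold lower at 1113 ± 108 CPM, against 1923 ± 66.4 CPM. The other 2 that rose (named after seeing their values) were Cldn8 (1.05) and the scaffold Tjp3 (0.61). Among the epithelial markers, the keratins Krt18 (-1.33), Krt20 (-0.99) and Krt8 (-0.89) and the adhesion molecule Epcam (-0.47) fell as well, while the intestinal factors Cdx1 (0.12) and Cdx2 (0.13) did not pass the test. In bulk RNA, fewer cells of a type and less RNA per cell cannot be told apart.

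Genes induced by interferon, which act against viruses, were lower at 24 h in most cases where they passed the test. Of 46 tested, 24 fell and 3 rose, with a median of -0.85 (without replicate 4, 22 and 3, with a median of -0.82). Rsad2, the antiviral enzyme viperin (chromosome 12, 26442743 to 26456452), stood at 0.456, 0.84, 0.47 and 0.141 CPM at 24 h, against 5.43, 7.24, 14.0 and 4.72 CPM at 6 h, 16.2-fold lower (log2 change -4.02 ± 0.37, adjusted p = 1.84e-09). The value of 24 h replicate 4 was close to the floor, and the 6 h libraries were uneven, with replicate 3 the highest. Oasl1, of the family of oligoadenylate synthetases, was 2.47-fold lower at 27.0 ± 3.10 CPM, against 66.8 ± 2.94 CPM at 6 h. Ddx58, the RNA sensor RIG-I, was 1.91-fold lower, and Psmb8, a subunit of the immunoproteasome, 3.2-fold lower at 4.47 ± 0.959 CPM, against 14.3 ± 0.577 CPM. The 3 that rose (named after seeing their values) were Ifi27 (0.37), Ifi27l2b (0.82) and the GTPase Irgm1 (0.59). The interferon-stimulated response element, searched as TTCNNTTTC on both strands, was found in 21 of 34 promoters of the list (61.8%), against 8.27% of all tested promoters. That of Rsad2 is printed with the match in capitals (chr12:26456403-26456702, minus strand, RefSeq on GRCm38.p6).
Rsad2: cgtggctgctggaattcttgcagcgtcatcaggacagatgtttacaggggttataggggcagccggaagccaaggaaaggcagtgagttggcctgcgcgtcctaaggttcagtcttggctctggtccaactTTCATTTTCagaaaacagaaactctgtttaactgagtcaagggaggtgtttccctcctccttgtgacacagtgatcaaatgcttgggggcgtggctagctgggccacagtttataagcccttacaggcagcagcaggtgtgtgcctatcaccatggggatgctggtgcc

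Genes of MHC class II, which present peptides to T cells and are also expressed by intestinal epithelium, were low at both times and lower at 24 h. Of 8 tested, 5 fell and 1 rose (median -1.75), with the same counts without replicate 4. Cd74, the invariant chain that escorts class II molecules, stood at 4.97, 6.10, 5.97 and 6.15 CPM at 24 h, against 43.5, 40.5, 44.3 and 41.3 CPM at 6 h, 7.32-fold lower (adjusted p = 8.36e-16). The class II chains followed: H2-Aa averaged 0.872 ± 0.261 CPM at 24 h and 5.76 ± 0.406 CPM at 6 h, H2-Ab1 3.79 ± 0.757 CPM and 12.3 ± 1.30 CPM, and H2-Eb1 1.13 ± 0.826 CPM and 6.02 ± 0.561 CPM. These genes are polymorphic and similar to each other, so unique alignment may lose some of their reads. The one that rose was the activator Rfx5 (0.84), named after its value was seen. Ptprc, the common leukocyte antigen, stood at most at 0.0723 CPM at 24 h and 0.114 CPM at 6 h, at or below the floor of 3 counts.

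Targets of NF-kB and epithelial chemokines fell in 18 of 29 tested genes and rose in 5 (median -0.87; without replicate 4, 17 and 5, with a median of -0.73). Nfkb2, a subunit of NF-kB and a target of it, was 2.19-fold lower at 67.7 ± 3.49 CPM, against 148 ± 7.00 CPM at 6 h. Bcl3, a nuclear regulator of the same factor, was 3.21-fold lower, and the membrane chemokine Cxcl16 2.49-fold lower. Pigr, the receptor that carries immunoglobulin A through the epithelium (chromosome 1, 130826684 to 130852249), moved the other way. It stood at 1137, 1153, 1249 and 999 CPM at 24 h, against 538, 539, 553 and 516 CPM at 6 h, 2.12-fold higher, with replicate 4 the lowest of the 24 h libraries. The other 4 that rose (named after seeing their values) were the chemokines Ccl20 (0.94) and Ccl25 (1.27) and the cytokines Il1a (1.12) and Il18 (1.85).

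Genes of the amino acid response, many of them targets of the factor ATF4, were higher at 24 h. Of 41 tested, 30 rose and 3 fell, with a median of 0.58 (without replicate 4, 32 and 4, with a median of 0.49). Pck2, the mitochondrial enzyme that makes phosphoenolpyruvate (chromosome 14, 55540263 to 55550020) and is induced by ATF4, stood at 205, 221, 222 and 278 CPM at 24 h, against 42.2, 45.5, 44.3 and 46.9 CPM at 6 h, 5.18-fold higher (log2 change 2.37 ± 0.07). Chac1, which breaks down glutathione (chromosome 2, 119351242 to 119354326), stood at 41.8, 46.3, 47.0 and 42.2 CPM at 24 h, against 9.14, 8.16, 8.73 and 8.62 CPM at 6 h, 5.12-fold higher (log2 change 2.36 ± 0.08, adjusted p = 4.35e-17). For both genes the groups lay far apart, and only for Pck2 was replicate 4 the highest library. Cth, which makes cysteine from cystathionine, was 2.54-fold higher at 274 ± 8.84 CPM, against 108 ± 6.63 CPM at 6 h. Gpt2, a mitochondrial alanine aminotransferase, was 3.05-fold higher, and Psat1, of serine synthesis, 1.91-fold higher at 379 ± 11.6 CPM, against 198 ± 4.93 CPM. The 3 that fell, named after their values were seen, were the arginine transporter Slc7a1 (-0.31), Wars (-0.20) and Xpot (-0.18). The amino acid response element, searched as TGATGNAAN on both strands, was found in 12 of 35 promoters of the list (34.3%), against 2.85% of all tested promoters. That of Chac1 is printed with the match in capitals on the reverse strand (chr2:119350992-119351291, plus strand, RefSeq on GRCm38.p6).
Chac1: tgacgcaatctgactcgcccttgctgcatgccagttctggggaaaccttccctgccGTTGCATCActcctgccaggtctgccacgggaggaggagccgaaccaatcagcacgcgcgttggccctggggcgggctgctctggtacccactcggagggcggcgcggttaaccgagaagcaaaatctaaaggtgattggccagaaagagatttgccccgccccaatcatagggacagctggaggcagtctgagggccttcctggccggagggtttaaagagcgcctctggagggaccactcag

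Genes of starvation and of FoxO factors, which are active when growth factor signals are low, rose in 23 of 30 tested genes and fell in 3 (without replicate 4, 24 and 2). Their median of 0.84 was the highest of the 19 lists in the plot of gene lists, and it was 0.83 without replicate 4. The 19 were taken from 47 lists. Retinoid enzymes and binding proteins, not plotted, had a median of 0.88, with 9 of 16 higher and 4 lower (without replicate 4, 8 and 4, with a median of 0.83). Pdcd4, an inhibitor of translation initiation (chromosome 19, 53892231 to 53937592), stood at 129.9, 142, 134 and 147 CPM at 24 h, against 29.1, 29.7, 34.4 and 31.0 CPM at 6 h, 4.45-fold higher (log2 change 2.15 ± 0.07). Sesn1, an inhibitor of the growth kinase mTORC1, was 2.06-fold higher at 43.5 ± 1.77 CPM, against 21.2 ± 1.15 CPM at 6 h. Foxo4, a FoxO factor itself, was 1.97-fold higher at 46.4 ± 0.903 CPM, against 23.6 ± 0.314 CPM, and Klhl24 is described above. The 3 that fell, named after their values were seen, were Foxo1 (-0.40), the autophagy receptor Sqstm1 (-0.37) and Fbxo21 (-0.19).

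Glutathione enzymes and other targets of the oxidative stress factor NRF2 rose in 33 of 41 tested genes and fell in 2 (median 0.54; without replicate 4, 32 and 3, with a median of 0.41). Gsta3, a glutathione transferase with close relatives, averaged 220.0 ± 35.5 CPM at 24 h and 66.9 ± 1.22 CPM at 6 h. Ugdh, which makes the sugar used for glucuronidation (chromosome 5, 65413207 to 65435842), stood at 698, 702, 675 and 696 CPM at 24 h, against 343, 343, 343 and 332 CPM at 6 h, 2.04-fold higher. Mgst1, a membrane glutathione transferase, was 2.12-fold higher, and Gclm, a subunit of the first enzyme of glutathione synthesis, 1.58-fold higher. The 2 that fell, named after their values were seen, were the canonical targets Srxn1 (-0.44) and Txnrd1 (-0.29). Genes of fatty acid oxidation rose in 24 of 30 and fell in 2 (median 0.47; without replicate 4, 23 and 2, with a median of 0.39).

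Genes of the mature absorptive cell were higher at 24 h. Of 37 tested genes of the brush border and the enterocyte, 31 rose and 4 fell, with a median of 0.70 (without replicate 4, 30 and 4, with a median of 0.69). Slc2a5, the fructose transporter (chromosome 4, 150119344 to 150144168), stood at 23.3, 24.1, 23.4 and 24.1 CPM at 24 h, against 5.80, 5.19, 5.54 and 5.71 CPM at 6 h, 4.26-fold higher (log2 change 2.09 ± 0.09, adjusted p = 3.38e-15). The values within each time were nearly equal, and replicate 4 was no exception. Slc15a1, the transporter of small peptides, was 2.76-fold higher at 74.1 ± 7.80 CPM, against 26.9 ± 1.57 CPM at 6 h. Mep1b, a subunit of the brush border protease meprin, was 2.78-fold higher at 224 ± 6.20 CPM, against 80.9 ± 5.11 CPM. Alpi, the intestinal alkaline phosphatase, changed less, at 56.3, 54.8, 69.2 and 55.3 CPM at 24 h, against 49.2, 45.5, 45.1 and 46.1 CPM at 6 h (log2 change 0.34 ± 0.10, adjusted p = 0.00638). Its highest value was that of 24 h replicate 3, and without that library the change no longer passed (0.24, adjusted p = 0.0603). Ezr, which links the brush border membrane to actin, was 1.85-fold lower at 546 ± 30.6 CPM, against 1009.6 ± 8.85 CPM. The other 3 that fell, named after their values were seen, were the keratin Krt20 and the actin bundler Vil1 (-0.39), both structural, and the ectonucleotidase Nt5e (-2.79).

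Genes of lipid absorption moved in the same direction in most cases, with 16 of 27 higher and 4 lower (median 0.44; without replicate 4, 17 and 6, with a median of 0.42). Scd1, a desaturase that makes monounsaturated fatty acids (chromosome 19, 44394450 to 44407709), stood at 304, 349.6, 335 and 266 CPM at 24 h, against 85.5, 70.9, 81.0 and 74.7 CPM at 6 h, 4.02-fold higher. Its relative Scd2 was among the most abundant transcripts described here, at 3114 ± 326 CPM at 24 h and 1465 ± 38.9 CPM at 6 h, 2.13-fold higher. Dgat1, which makes triglyceride, was 2.11-fold higher, and Abcg5, which returns plant sterols to the lumen, 2.12-fold higher. The 4 that fell, named after their values were seen, were Apoa4 (-0.42), Dgat2 (-0.77), the bile acid transporter Slc10a2 (-0.28) and Gpat3 (-0.17). Genes of cholesterol synthesis showed no common direction, with 17 of 34 higher and 11 lower (without replicate 4, 17 and 7). Hmgcs1, an early enzyme of the pathway, averaged 607 ± 29.4 CPM at 24 h and 553 ± 31.7 CPM at 6 h with overlapping groups (log2 change 0.13 ± 0.06), and its adjusted p of 0.0499 lay at the threshold. Its call was lost without replicate 1, 2 or 3 at 24 h and without replicate 1, 2 or 4 at 6 h.

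Genes of the Lgr5 stem cell were divided. Of 36 tested, 15 rose and 7 fell (median 0.18; without replicate 4, 17 and 7, with a median of 0.19), beside 31.0% higher and 28.1% lower among all genes. Lgr5, the R-spondin receptor that marks these cells (chromosome 10, 115450314 to 115587780), stood at 90.1, 79.6, 96.0 and 55.1 CPM at 24 h, against 35.7, 44.3, 36.8 and 35.9 CPM at 6 h, 2.1-fold higher (log2 change 1.07 ± 0.16, adjusted p = 5.11e-06). Replicate 4 was the lowest of the 24 h libraries and replicate 2 the highest of the 6 h libraries. Smoc2, a secreted matrix protein of the crypt base (chromosome 17, 14279490 to 14404790), stood at 563, 534, 548 and 586 CPM at 24 h, against 136, 145, 138 and 144 CPM at 6 h, 3.96-fold higher (log2 change 1.99 ± 0.06, adjusted p = 4.35e-17). Rgmb, a coreceptor of bone morphogenetic proteins, was 2.34-fold higher at 212 ± 8.46 CPM, against 90.6 ± 4.35 CPM at 6 h. Cbs, which makes cystathionine from homocysteine, was 3.37-fold higher at 23.0 ± 3.63 CPM, against 6.80 ± 0.495 CPM.

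Other defining genes of these cells did not pass the test or fell. Olfm4, a secreted glycoprotein abundant in these cells, stood at 1375, 1271, 1285 and 1168 CPM at 24 h, against 1376, 1397, 1452 and 1324 CPM at 6 h (log2 change -0.12 ± 0.13, adjusted p = 0.424), with overlapping groups. Olfm4 did pass in 1 of the alternative fits. Ascl2, the factor that maintains these cells, stood at 29.0, 32.7, 34.5 and 50.8 CPM at 24 h, against 31.3, 33.02, 32.99 and 36.5 CPM at 6 h, and its log2 change was 0.13 with replicate 4 and -0.07 without it. Cd44, an adhesion receptor and Wnt target that is also found on injured epithelium, was 3.08-fold lower at 109 ± 18.0 CPM, against 336 ± 11.3 CPM at 6 h.

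Wnt feedback and target genes, of which Lgr5, Ascl2, Axin2, Cd44 and Ephb2 and others are also on the stem cell list, fell in 10 of 24 and rose in 3 (median -0.20; without replicate 4, 10 and 4, with a median of -0.17). Axin2, the feedback inhibitor used as a readout of the pathway, stood at 262, 245, 249 and 169.8 CPM at 24 h, against 257, 283, 254 and 267 CPM at 6 h, and did not pass the test (log2 change -0.20 ± 0.11, adjusted p = 0.122). Its lowest value was that of replicate 4, without which the log2 change was -0.08. Without replicate 1 at 24 h the log2 change was -0.27 and passed the test. Tcf7, a nuclear factor of the pathway, was 1.83-fold lower at 24.2 ± 2.28 CPM, against 44.3 ± 1.06 CPM at 6 h, and Ephb2, a receptor that positions cells along the crypt, 1.73-fold lower. Those that rose were Lgr5 and, named after their values were seen, Bambi (0.72) and Ephb3 (0.44). Fzd7, the receptor that dFz7-21 is described to block, stood at 49.5, 45.7, 46.1 and 31.7 CPM at 24 h, against 46.7, 49.0, 46.9 and 45.8 CPM at 6 h (log2 change -0.12 ± 0.12, adjusted p = 0.388), again with replicate 4 the lowest and overlapping groups.

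Markers of secretory cells had no direction common to all of them. Of 33 enteroendocrine genes, 11 fell and 3 rose (median -0.23; without replicate 4, 13 and 3, with a median of -0.37). Vgf, a granule peptide precursor, had the largest change of those named (log2 change -3.12 ± 0.30) at a low level, with 0.456, 0.796, 0.398 and 0.282 CPM at 24 h, against 4.18, 4.62, 3.76 and 4.38 CPM at 6 h. Chga, a protein of hormone granules, averaged 32.5 ± 7.25 CPM at 24 h and 51.5 ± 2.65 CPM at 6 h, a log2 change of -0.67 ± 0.11. Chgb, its relative, was 1.47-fold lower, Scg2, of the same granin family, 1.8-fold lower, and Tph1, the first enzyme of serotonin synthesis in the gut, 1.68-fold lower. The 3 that rose (named after seeing their values) were the progenitor factor Neurog3 (0.45), the hormone Cck (0.68) and Cplx2 (0.35). Goblet cell genes rose and fell in equal numbers, 8 and 8 of 27 (without replicate 4, 5 and 11), and the mucin Muc2 was 1.4-fold lower at 76.2 ± 6.90 CPM, against 107 ± 11.8 CPM at 6 h. Paneth cell genes rose in 7 and fell in 6 of 26 (without replicate 4, 3 and 9), and their lysozyme Lyz1 did not pass the test (1041 ± 64.3 CPM at 24 h, 1093 ± 26.5 CPM at 6 h). Lyz1 did pass in 3 of the alternative fits. Tuft cell genes rose in 2 and fell in 6 of 25 (without replicate 4, 2 and 5), with the kinase-like Dclk1 1.72-fold lower.

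Circadian clock genes moved in both directions. Of 23 tested, 9 rose and 7 fell (median 0.15; without replicate 4, 10 and 7, with a median of 0.16). Dbp, an output factor of the clock (chromosome 7, 45705100 to 45710203), stood at 12.9, 15.5, 16.3 and 17.5 CPM at 24 h, against 3.34, 4.36, 4.78 and 4.498 CPM at 6 h, 3.65-fold higher (log2 change 1.87 ± 0.13). Its relative Tef was 1.75-fold higher, and the repressor Nr1d1 1.48-fold higher at 34.5 ± 1.88 CPM, against 23.3 ± 0.876 CPM. Cry1, a repressor of the other phase, was 2.01-fold lower at 30.8 ± 0.299 CPM, against 61.8 ± 4.38 CPM at 6 h, Bhlhe40 1.94-fold lower and Per2 1.49-fold lower. The labels give no clock time of collection.

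The time course in Fz7-21S was set against that in DMSO, which shares no library with it. Of the 9118 genes called in Fz7-21S, 6782 were called in the same direction in DMSO, which is 74.4% of the Fz7-21S calls and 84.2% of the 8058 DMSO calls, and 2 were called in the opposite direction. Across all genes the 2 log2 changes correlated at r = 0.80, a description over genes that are not independent. Of the 1864 genes with at least a 2-fold change in Fz7-21S, 1833 changed with the same sign in DMSO. The difference between the 2 time courses passed the edgeR test for 0 genes (0.0%), with 1360 genes at an unadjusted p below 0.05 (8.81%) and a smallest adjusted p of 0.227. A p that misses the threshold does not show that the courses are alike. The 95% interval of the difference, Fz7-21S minus DMSO, ran from -0.19 to 0.27 on the log2 scale for Ccnb2, from -0.31 to 0.13 for Fos and from -0.52 to 0.41 for Lgr5.

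The genes with the smallest p for this difference were mostly enzymes of amino acid supply. Pycr1, the last enzyme of proline synthesis (chromosome 11, 120638998 to 120643748), stood at 19.1, 22.3, 21.6 and 18.8 CPM in Fz7-21S at 24 h and at 12.1, 11.1, 10.3 and 13.1 CPM in Fz7-21S at 6 h. In DMSO it stood at 12.9, 13.3, 15.5 and 13.7 CPM at 24 h and at 12.2, 11.4, 14.6 and 13.3 CPM at 6 h. Its log2 change over time was 0.81 with Fz7-21S and 0.11 with DMSO, a difference of 0.71 ± 0.14 (adjusted p = 0.227). Asns, asparagine synthetase, had a difference of 0.36 ± 0.07, with 319.9 ± 23.1 CPM in Fz7-21S and 248 ± 11.9 CPM in DMSO at 24 h, and 186 ± 4.67 CPM in Fz7-21S and 186 ± 10.6 CPM in DMSO at 6 h. The differences were 0.35 ± 0.07 for Cth, 0.47 ± 0.10 for Pck2, 0.61 ± 0.12 for Tmem86a and 0.62 ± 0.13 for Akr1b8, an aldo-keto reductase. None of these 6 passed with edgeR, but DESeq2 called 8 genes and limma voom with library weights 9, each of them higher in Fz7-21S. Pycr1, Asns, Cth, Pck2 and Akr1b8 were called by both, with an adjusted p for Pycr1 of 0.00885 from DESeq2 and 0.0314 from limma voom. The others were Tmem86a, Phgdh and Shmt2 with DESeq2, and Aldh1l2, Gpt2, Psat1 and Psph with limma voom, among them enzymes of serine synthesis (Phgdh, Psat1 and Psph) and of mitochondrial folate metabolism (Shmt2 and Aldh1l2). Of the 41 genes of the amino acid response, 19 had an unadjusted edgeR p below 0.05 for this difference. For all 19 the difference, Fz7-21S minus DMSO, was positive. The median difference of the list was 0.19 (0.16 without replicate 4), against 0.01 for all genes. Other lists also lay above the median of all genes. Of 41 NRF2 genes 15 had such a p, all 15 with a positive difference. The median difference of the NRF2 genes was 0.22 (0.10 without replicate 4). The medians were 0.31 for interferon genes (0.33 without replicate 4), 0.28 for ribosomal protein genes (0.03) and 0.21 for respiratory chain genes (0.03). Such a p was found for 4 of 46 interferon, 6 of 44 ribosomal protein and 4 of 40 respiratory chain genes, each with a positive difference. Over all genes the share was 8.81%. Interferon genes had negative medians over time, -0.85 in Fz7-21S and -1.10 in DMSO, so a positive difference can be a smaller fall. Psmb8, for example, changed by -1.68 in Fz7-21S and by -2.22 in DMSO. Nid1, the gene that rose most, had a difference of 1.26 ± 0.51 (adjusted p = 0.527), which was -0.07 without the 3 libraries that held mesenchymal transcripts. In DMSO at 6 h it stood at 10.1, 16.8, 3.65 and 3.20 CPM, with the higher values in the replicates 1 and 2 that held such transcripts.

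The time course in dFz7-21 was compared in the same way. Of the Fz7-21S calls, 7028 were called in the same direction in dFz7-21, which is 77.1% of them and 76.0% of the 9243 dFz7-21 calls, while 141 were called in the opposite direction. Over all genes the correlation was r = 0.74, and 1782 of the 1864 genes with at least a 2-fold change had the same sign. The difference between the 2 time courses passed the test for 1687 genes (10.9%), of which 787 (5.1%) had a higher and 900 (5.83%) a lower change in Fz7-21S than in dFz7-21. Without Fz7-21S 24 h replicate 4, 2878 genes passed; among the 15429 genes tested with all libraries, 1126 (7.3%) then had a higher and 1751 (11.3%) a lower change in Fz7-21S.

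**Figure D4:**
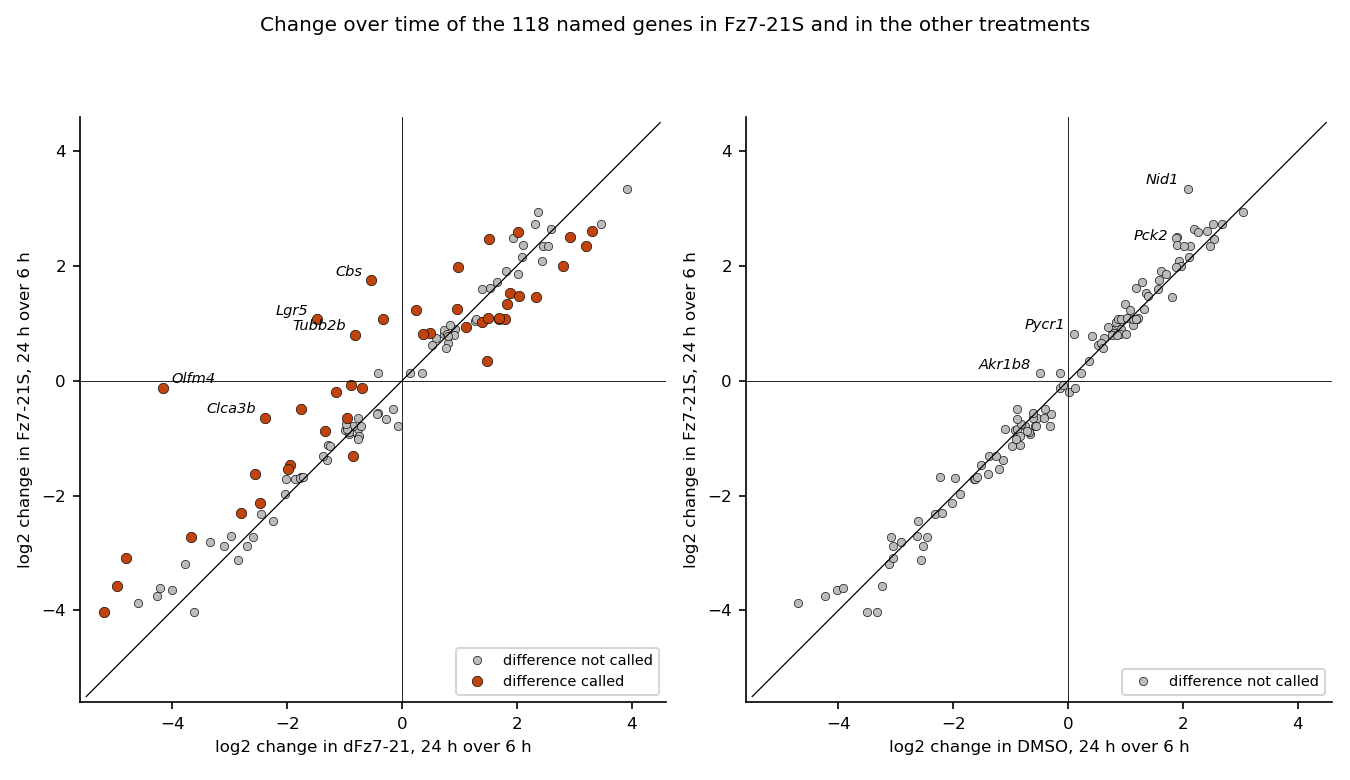
Log2 change, 24 h over 6 h, of the 118 named genes in Fz7-21S (vertical axes) against the change in dFz7-21 (left panel) and in DMSO (right panel); the diagonal marks equal changes and filled orange points are genes whose difference passed the test. In dFz7-21, 44 genes differed, with Olfm4, Clca3b, Lgr5, Tubb2b and Cbs far above the diagonal, while in DMSO none passed. Over all genes tested 10.9% differed from dFz7-21, and some of the named genes were chosen by this difference.

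Of the 36 stem cell genes, 23 had a higher and none a lower change over time in Fz7-21S than in dFz7-21, with a median difference of 0.65, against 0.02 for all genes. Without replicate 4 of Fz7-21S at 24 h, the counts were 27 and 0 of 36 (median 0.65), and without the 3 libraries with mesenchymal transcripts they were 22 and 0 (median 0.66). Such a difference was not particular to this list. Of 26 Paneth cell genes, 16 had a higher and 0 a lower change (median 0.68), and without replicate 4 16 and 2 (median 0.46). For 24 Wnt feedback and target genes, which share members with the stem cell list, the counts were 12 and 0 (median 0.58), and without replicate 4 15 and 2 (median 0.50). Olfm4, which did not pass the test over time in Fz7-21S, stood at 87.2, 45.1, 63.1 and 76.2 CPM in dFz7-21 at 24 h and at 1091, 1224, 1305 and 1257 CPM in dFz7-21 at 6 h. The difference between the courses was 4.05 ± 0.19 on the log2 scale (adjusted p = 1.67e-12). Lgr5 rose in Fz7-21S, where dFz7-21 libraries held 4.77, 2.003, 4.41 and 4.11 CPM at 24 h and 10.3, 11.4, 10.1 and 10.99 CPM at 6 h, a difference of 2.56 ± 0.27 (adjusted p = 6.88e-07). At 6 h the levels already lay apart, with a mean of 38.2 CPM in Fz7-21S and 10.7 CPM in dFz7-21. Cbs rose in Fz7-21S and stood at 3.10 ± 0.248 CPM at 24 h and 4.53 ± 0.301 CPM at 6 h in dFz7-21, a difference of 2.30 ± 0.16. Smoc2 (difference 1.01 ± 0.09) and Rgmb (0.98 ± 0.10) rose under both treatments, and more in Fz7-21S. Axin2, with no call over time in Fz7-21S, averaged 93.9 ± 16.2 CPM at 24 h and 208 ± 16.1 CPM at 6 h in dFz7-21 (difference 0.95 ± 0.15, adjusted p = 0.000161).

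The other genes with the smallest p for this difference were Tubb2b, a beta tubulin (difference 1.62 ± 0.09), the stem cell list member Clca3b (1.75 ± 0.12), Atp2c2, a calcium pump of the secretory pathway (1.40 ± 0.11), and Sema7a, a membrane-anchored semaphorin (1.26 ± 0.10). Tubb2b stood at 42.6, 38.1, 43.1 and 47.1 CPM in Fz7-21S and at 18.0, 16.8, 17.5 and 16.4 CPM in dFz7-21 at 24 h, and at 24.5, 26.2, 23.1 and 24.1 CPM in Fz7-21S and at 29.7, 30.7, 29.6 and 31.4 CPM in dFz7-21 at 6 h, so that it rose in Fz7-21S and fell in dFz7-21. Atp2c2 rose in Fz7-21S (log2 change 1.08), against a log2 change of -0.32 in dFz7-21. Clca3b and Sema7a fell under both treatments, to 726 and 156 CPM in Fz7-21S and to 240.2 and 56.1 CPM in dFz7-21 at 24 h. Of the 44 named genes that differed, 4, namely Lgr5, Cbs, Tubb2b and Atp2c2, were called in opposite directions under the 2 treatments.

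**Figure D5:**
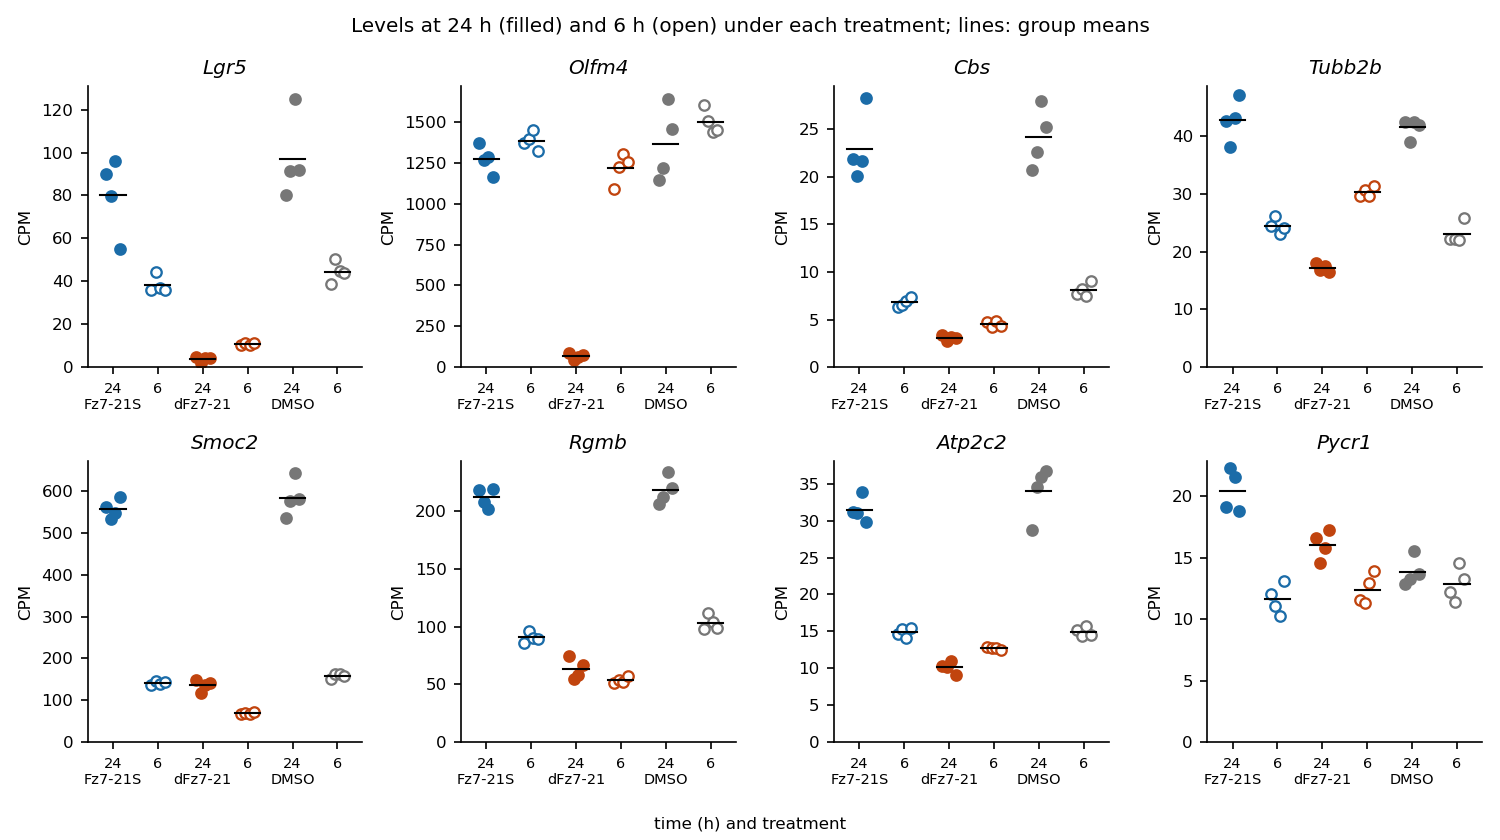
Levels in CPM of 8 genes under Fz7-21S, dFz7-21 and DMSO at 24 h (filled) and 6 h (open); points are libraries, 4 in each group, and lines group means. Under Fz7-21S and DMSO, Lgr5, Cbs, Tubb2b, Smoc2, Rgmb and Atp2c2 are higher at 24 h than at 6 h, while under dFz7-21 Lgr5, Cbs, Tubb2b and Atp2c2 are lower at 24 h and Olfm4 falls to 67.9 CPM on average.

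Genes of absorptive cells differed the other way. Of 37 enterocyte genes, 27 had a lower log2 change in Fz7-21S than in dFz7-21 and 1 a higher one, with a median difference of -0.57, and of 27 lipid absorption genes 19 and 0, with a median of -0.59. Without replicate 4 of Fz7-21S at 24 h, 29 of 37 and 21 of 27 had a lower change and none a higher one. Alpi averaged 58.9 ± 6.87 CPM in Fz7-21S and 132 ± 4.54 CPM in dFz7-21 at 24 h, and 46.5 ± 1.89 CPM in Fz7-21S and 46.9 ± 2.77 CPM in dFz7-21 at 6 h, a difference of -1.14 ± 0.15. Slc15a1 had a difference of -0.87 ± 0.12, Scd1 of -0.80 ± 0.11 and Dgat1 of -0.72 ± 0.08, each of them called higher at 24 h under both treatments. Among the genes that fell most in Fz7-21S, Krt6a (difference 1.71 ± 0.20), Lama3 (1.39 ± 0.23) and Tead4 (0.96 ± 0.15) fell less in Fz7-21S than in dFz7-21. At 6 h these 3 genes had lower means in Fz7-21S than in dFz7-21, for Krt6a 29.3 CPM in Fz7-21S and 56.3 CPM in dFz7-21. Genes of ribosome biogenesis had 0 of 50 members with a difference from dFz7-21 in either direction, and of the 50 mitotic genes 4 had a higher and 0 a lower change in Fz7-21S. Without replicate 4 at 24 h, 4 ribosome biogenesis genes had a lower change and none a higher one, and 10 mitotic genes had a higher change and none a lower one, where over all genes 7.3% had a higher and 11.3% a lower change.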

How the data were processed

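The 24 libraries were made from polyadenylated RNA of mouse small intestinal organoids; per the labels' protocols, RNA was purified with RNeasy Micro columns. Reads were aligned with GSNAP to GRCm38, per the submitters' processing notes; versions, gene annotation and any use of strand in counting are not given in these sources, so overlapping and antisense genes cannot be told apart. Per the file headers, the authors deposited for each library the count of reads aligned to each gene model, and an RPKM value adjusted by a size factor. The count column was used; the deposited RPKM values were not analysed, since within each library they are the counts scaled per gene. The files hold 36528 gene IDs, of which 31049 were named from RefSeq and 78 from GENCODE tables; 5401 had no symbol and took 2.54% to 3.50% of the counts. They stayed in the tests and are not named.

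The 24 libraries (20446610 to 33102993 counts) entered one fit in edgeR 4.0.16 (R 4.3.3), after filterByExpr over the 6 groups and TMM scaling, and the robust quasi-likelihood test was applied to Fz7-21S 24 h against 6 h and to its differences from the changes in DMSO and in dFz7-21. P-values were adjusted over all 15429 genes by the Benjamini-Hochberg method. Fitting all 6 groups lets them share one estimate of the spread. The script was tested on simulated data with known fold changes. Intervals and the floor of 3 counts cover counting error only where they come from counts, and PCR duplicates are not marked.

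Genes were named by a rule: in each direction the 14 called genes of largest change, if their mean log2 CPM was 2 or more, their 24 h and 6 h libraries did not overlap and their symbol was established; the 4 members of each of 19 lists with the smallest p; a panel of markers whatever their result; and for each difference the 6 genes with the smallest p and a mean log2 CPM of at least 2. Together these are 120 genes, of which 2 are not reported here and 118 are used as the named genes; counts over lists and over all genes keep them. The comparison, the panel and the lists were chosen with earlier results of these data known, so counts over them are descriptions. Genes named outside the rule were picked after their values were seen. Positions are those of GRCm38, and promoters are RefSeq sequences of GRCm38.p6, found for 11334 of the tested genes.

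The alternatives tried were DESeq2's RLE scaling, all genes left unfiltered, a replicate block, only the 8 Fz7-21S libraries, DESeq2 1.42.0, a test against a minimum fold of 1.2, removal of a length trend per library, voom of limma 3.58.1 with library weights, the fit without libraries with mesenchymal transcripts, and leaving out each Fz7-21S replicate.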

Additional observations from a re-analysis of the deposited data

Results flagged for a closer look

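Of the 236 groups of 4 libraries formed by the 118 named genes at the 2 times, 22 held a library that lay apart, in that its gap to the nearest other library was a share of the range of the group above Dixon's 95% critical value. Chance gives such a library in about 1 in 20 groups. Replicate 4 of Fz7-21S at 24 h was that library in 13 of the 22. It was the highest of its group for Prnd (3.38 CPM), Prn (3.57 CPM), Mcm7 (125 CPM), Nop2 (107 CPM), Tnfrsf12a (128 CPM) and Cxcl16 (67.4 CPM). It was the lowest for Prelp (20.1 CPM), Aldh1a3 (0.704 CPM), Ddx58 (17.5 CPM), Slc15a1 (62.5 CPM), Scd2 (2625 CPM), Axin2 (169.8 CPM) and Mki67 (203 CPM). Prnd and Prn, whose reads cannot be told apart, are counted here as separate genes. Replicate 1 of 24 h stood apart below its group for Cd74 (4.97 CPM) and Oasl1 (22.4 CPM). Replicate 3 of 24 h stood apart above its group for Alpi (69.2 CPM) and below it for Mphosph10 (53.2 CPM). At 6 h, replicate 2 stood apart for Prn (31.2 CPM), Mgst1 (174 CPM) and Lgr5 (44.3 CPM), replicate 3 for Psat1 (206 CPM) and replicate 4 for Ugdh (332 CPM).

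The change over time differed between Fz7-21S and dFz7-21 for 44 of the 118 named genes, by the edgeR quasi-likelihood test of the difference with adjustment over all genes. Over all genes tested the share was 10.9%. The naming rule took in the 6 genes with the smallest p for this same difference. The lists and the panel were chosen with earlier results known, so the count of 44 is partly set by the choice of genes. The values below are log2 differences, the change in Fz7-21S minus the change in dFz7-21, and adjusted p ran between 1.67e-12 for Olfm4 and 0.0482 for F3. It was higher in Fz7-21S for 28 genes. Among genes of stem cells and the Wnt pathway these were Olfm4 (4.05), Lgr5 (2.56), Cbs (2.30), Clca3b (1.75), Smoc2 (1.01), Rgmb (0.98), Cd44 (0.95), Axin2 (0.95), Fzd7 (0.57), Tcf7 (0.46) and Myc (0.30). Among matrix, keratin and growth factor genes and others that fell they were Krt6a (1.71), Lama3 (1.39), Aldh1a3 (1.16), Tead4 (0.96), F3 (0.35), Tnfrsf12a (0.48), Btc (0.51) and Egfr (0.45). The others were Tubb2b (1.62), Atp2c2 (1.40), Sema7a (1.26), Prelp (0.95), Lyz1 (0.81), Rec8 (0.57), Pycr1 (0.45), Btg2 (0.35) and Nusap1 (0.29). The change was lower in Fz7-21S for 16 genes. Of these, Alpi (-1.14), Slc15a1 (-0.87), Scd1 (-0.80), Dgat1 (-0.72), Abcg5 (-0.61), Mep1b (-0.57) and Scd2 (-0.40) belong to the enterocyte or to lipid metabolism, and the others were Dmbt1 (-0.86), Slc6a20a (-0.70), Pigr (-0.61), Cth (-0.49), Oasl1 (-0.45), Tmem86a (-0.42), Ugdh (-0.36), Cldn15 (-0.36) and Psat1 (-0.19). The 2 times are shared by both treatments, but no library is.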

How the results depend on the processing

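The count of 9118 genes called over time moved by less than 1.5 times under every alternative except the test against a minimum fold of 1.2, which called 5719 genes, 3145 higher and 2574 lower. It was 9089 with RLE size factors, 8668 with no filter, 7187 with only the 8 Fz7-21S libraries, 9261 with DESeq2, 9311 with the length trend removed, 9679 with voom and library weights and 9226 without the libraries with mesenchymal transcripts. Leaving out 1 Fz7-21S library at a time gave 8449 to 9221. The difference from the DMSO time course was called for 8 genes by DESeq2 and 9 by voom, and for 0 in each of the edgeR fits run. The difference from dFz7-21 was called for 575 genes with the minimum fold and 3475 with voom. Leaving out 1 Fz7-21S library at a time gave 1382 to 2878 calls, the last without 24 h replicate 4; the cause was not tested. With 2 alternatives chosen after seeing the data, 8089 genes were called over time in the 8 libraries with the length trend removed, and 9464 in the 8 libraries without that replicate.

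With a replicate block the counts were 9152 over time, 0 against DMSO and 1674 against dFz7-21. Same-numbered libraries of the 2 times correlated in their deviations at 0.09, -0.01, 0.03 and 0.14 for numbers 1 to 4. At 24 h, replicates 1, 3 and 4 correlated best with their own number at 6 h, and replicate 2 with number 1 (0.06). These correlations are weak and rest on group means that include replicate 4 of 24 h. Whether the numbers pair the samples therefore cannot be told. Among the 118 named genes, 116 to 118 kept their direction and side of the threshold in each alternative, and none changed sign while called. Hmgcs1 lost its call in 12 alternatives and Alpi in 2. Lyz1 gained a call in 3 alternatives, and Axin2 and Olfm4 in 1 each. Depth limits the lowest genes, such as Rsad2 at 24 h, and 4 libraries in each group limit the precision of all values.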
